A study of Homo sapiens with 4 samples.

Results

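The HOXB cluster was examined gene by gene in K562 cells that carried the JAZF1-SUZ12 fusion and in mock cells. Its members were the 10 rows of the count table whose symbol was HOXB1, HOXB2, HOXB3, HOXB4, HOXB5, HOXB6, HOXB7, HOXB8, HOXB9 or HOXB13, out of 35606 genes in the table. K562, an established line from a chronic myelogenous leukaemia that can make globins, was the source of every library, although the labels also name the uterus as the source. There were 2 groups of 2 libraries, labelled JAZF1-SUZ12 and mock, each numbered 1 and 2. The labels do not say how the fusion was delivered, what the mock cells received or whether the replicates were separate cultures, so p-values measure only the spread between these libraries. JAZF1-SUZ12 is the fusion protein of endometrial stromal tumours in which a piece of JAZF1 is fused to SUZ12, a core subunit of Polycomb repressive complex 2 (PRC2).

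HOX genes encode homeodomain transcription factors that set position along the body axis, and their order on the chromosome follows the order in which they are used from head to tail. In mammals they lie in the clusters HOXA, HOXB, HOXC and HOXD, and genes with the same number in different clusters are paralogues. Outside their domain of use, HOX genes are repressed by PRC2, which places methyl groups on lysine 27 of histone H3. Blood progenitors are known to use HOXB genes of the 3′ side of the cluster. HOXB13 lies apart at the 5′ end and is best known as a factor of prostate and distal colon epithelium.

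Within the cluster, 1 gene was called: HOXB13 went from 0 counts in both mock libraries to 28 and 22 counts in the JAZF1-SUZ12 libraries. The 8 expressed genes from HOXB2 to HOXB9 had fitted changes (edgeR) well within 2-fold, and HOXB1 had 0 counts throughout. Of the 10 members, 9 had enough counts to be tested, 1 was called higher and 0 were called lower (edgeR quasi-likelihood test, adjusted p under 0.05). Before adjustment, edgeR also placed 2 members, HOXB2 and HOXB9, under 0.05, both in the lower direction. The share of all tested genes under 0.05 before adjustment is not given here. Over the transcriptome, 24.7% of 14750 tested genes were called, 13.3% higher and 11.4% lower. HOXB13 passed the filter on low counts only through the JAZF1-SUZ12 libraries, whereas the other 8 tested members had enough counts in both groups.

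The libraries held between 17260936 and 24423028 estimated counts, and the deepest and the shallowest were both JAZF1-SUZ12 libraries. Of 12 erythroid markers all were tested and 5 were called higher (edgeR), beside 13.3% called higher over all tested genes. Levels are given in CPM, counts divided by the library total and multiplied by 1000000. The summed level of the erythroid markers was 12821 and 13116 CPM in mock and 14835 and 15023 CPM with the fusion. Of 9 markers of endometrial stroma and smooth muscle, 5 were tested, 1 was called higher (DES, edgeR) and 4 were not called. LUM had 0 counts in every library. The sum was 37.7 to 38.5 CPM in mock and 49.8 to 50.1 CPM with the fusion. Most of this rise was DES alone, at 26.8 and 26.7 CPM in mock and 36.3 and 36.7 CPM with the fusion. Of 8 markers of prostate and distal colon epithelium, in which HOXB13 is normally used, KLK3 and KRT20 had 0 counts in every library. The part of these cell markers in the HOX results was not tested. The summed level of the 8 epithelial markers was 127 to 131 CPM in mock and 110.2 to 114.5 CPM with the fusion. EPCAM, an epithelial adhesion protein among them, was lower (log2 fold change -0.25, edgeR, adjusted p = 0.0175).

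Since HOX paralogues are alike in the homeobox, the stretch around the recognition helix, which enters the major groove of DNA, is shown for 6 members to let them be told apart. Each line gives 54 bases of the coding strand from GENCODE 29 transcripts on GRCh38, 5′ to 3′, all on the minus strand of chromosome 17. The capitals mark 18 bases of 6 codons whose amino acids are the same in these 6 genes.
HOXB1 chr17:48529679-48529732: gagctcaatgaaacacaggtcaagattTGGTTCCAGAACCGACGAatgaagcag
HOXB2 chr17:48543545-48543598: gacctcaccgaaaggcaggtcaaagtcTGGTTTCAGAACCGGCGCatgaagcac
HOXB6 chr17:48596485-48596538: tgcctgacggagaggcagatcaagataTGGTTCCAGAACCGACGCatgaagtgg
HOXB7 chr17:48607920-48607973: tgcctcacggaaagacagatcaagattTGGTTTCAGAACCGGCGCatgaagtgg
HOXB9 chr17:48622933-48622986: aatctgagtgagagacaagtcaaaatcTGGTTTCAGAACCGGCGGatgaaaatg
HOXB13 chr17:48726832-48726885: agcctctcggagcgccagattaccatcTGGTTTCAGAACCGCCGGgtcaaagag

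Against HOXB9, the stretch of HOXB2 differed at 14 of 54 bases and that of HOXB13 at 18, the fewest and the most among those shown. Over whole transcripts, the longest run of bases that HOXB13 shared with any other member was 17, with HOXB9. Cut into words of 31 bases, HOXB13 transcripts held 3437 different words. Of these, 29 also occurred on the same strand in transcripts of 41 other genes, none of them a HOX gene. Of the 29 words, 28 were shared with genes of the count table. Of the words of HOXB9, 99.6% were its own, and the rest were shared with HOXD9. The lowest shares were 83.8% for HOXB6, which shares words with HOXB3 and HOXB7, and 85.4% for HOXB4. If strand was not used in counting, which the sources used here do not say, the share for HOXB6 would be 71.1%, because the antisense RNA HOXB-AS3 crosses it.

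The deposited values were estimated counts, which need not be whole. All member values were whole numbers except for one pair in JAZF1-SUZ12 replicate 2, where HOXB3 had 1087.398 and HOXB6 had 222.602 estimated counts, which sum to 1310. HOXB3 has 13 annotated transcripts, and its span on the chromosome covers HOXB4, HOXB5 and nearly all of HOXB6. As far as sharing goes, values of HOXB3 and HOXB6 are therefore less certain than those of HOXB2, HOXB8, HOXB9 and HOXB13. How far shared words affect the few counts of HOXB13 was not tested. HOXB4 shared 543 of its 3727 words with other genes, but only 91 with genes of the count table. For HOXB7, 80 of 1491 words were shared, 77 of them with genes of the count table. How far this sharing affects the values of HOXB4 and HOXB7 was not tested.

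HOXB13 (ENSG00000159184; GRCh38 chromosome 17, 48724763 to 48729178, minus strand) encodes a homeodomain protein of the posterior end of the series. Its counts were 0 and 0 in mock replicates 1 and 2, and 28 and 22 in JAZF1-SUZ12 replicates 1 and 2. On the CPM scale this was 1.62 (95% exact Poisson interval 1.08 to 2.34) and 0.901 (0.565 to 1.36) in the JAZF1-SUZ12 libraries. In mock libraries, 3 counts would be 0.147 and 0.141 CPM. Both JAZF1-SUZ12 libraries lay above both mock libraries, and the shallower of them had the higher level. Poisson intervals cover counting error only.

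The difference in HOXB13 was called (edgeR, adjusted p = 0.000422). HOXB13 passed the filter on low counts only through the JAZF1-SUZ12 libraries. That it was higher was thus fixed by the filter, and its call is given as a description. Because mock was at 0, the fold is known only from below: against 3 counts per mock library, HOXB13 was at least 8.77-fold higher, or 3.13 on the log2 scale. This bound takes the mean CPM of the JAZF1-SUZ12 libraries as it stands, without its counting error. The bound was 6.26-fold without JAZF1-SUZ12 replicate 1 and 11.3-fold without JAZF1-SUZ12 replicate 2. The authors' deposited table also called HOXB13 higher, with an adjusted p of 0.00223, where 8.50% of 15895 genes with an adjusted p were called. The fitted log2 fold change of 7.13 in the authors' deposited table is no bound.

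Few genes went from no counts in mock to at least 10 counts in both JAZF1-SUZ12 libraries. Among the 14750 tested genes, 13 had 0 counts in both mock libraries and at least 10 in both JAZF1-SUZ12 libraries, and HOXB13 ranked 6 of these by CPM. Of the 13 genes, 2 were HOX genes, HOXB13 and HOXD9. The opposite pattern, 0 counts in both JAZF1-SUZ12 libraries and at least 10 in both mock libraries, was found for 2 genes.

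HOXB9 (ENSG00000170689; chromosome 17, 48621159 to 48626356, minus strand) was the most abundant member and lies next to HOXB13 in the cluster, across a gap of 98.4 kb. Its level was 254.9 and 263.1 CPM in mock and 243.4 and 241.9 CPM with the fusion. The groups did not overlap, and both JAZF1-SUZ12 libraries were lower. The log2 fold change was -0.12 with a 95% interval from -0.21 to -0.02 (edgeR, adjusted p = 0.0754), which did not pass the threshold over all genes tested. The interval bounds any decrease of HOXB9 at 13.7%. HOXB9 passed without JAZF1-SUZ12 replicate 1 (edgeR, adjusted p = 0.0481) and without a filter on low counts (adjusted p = 0.0473).

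HOXB2 (ENSG00000173917), a paralogue group 2 gene of the hindbrain, was next to HOXB9 in abundance per kilobase of transcript, though below HOXB4 in CPM. Its level was 62.2 and 57.0 CPM in mock and 54.2 and 53.2 CPM with the fusion, lower in both and with no overlap. Its log2 fold change was -0.17 (95% interval -0.31 to -0.03; edgeR, adjusted p = 0.0670). It passed without mock replicate 2, at a fitted log2 value of -0.24 (edgeR, adjusted p = 0.0309), and without a filter on low counts (adjusted p = 0.0495).

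HOXB4 (ENSG00000182742), known for expanding blood stem cells when it is overexpressed, was lower in both JAZF1-SUZ12 libraries by a small amount. Its level was 77.9 and 78.0 CPM in mock and 74.9 and 75.9 CPM with the fusion. The log2 fold change was -0.07, with a 95% interval from -0.19 to 0.05 (edgeR, adjusted p = 0.415). HOXB3 (ENSG00000120093), its neighbour in the anterior part of the cluster, was at 39.1 and 40.0 CPM in mock and 39.7 and 44.5 CPM with the fusion, so the groups overlapped. Its log2 fold change was 0.07 (95% interval -0.08 to 0.23; edgeR, adjusted p = 0.518) and without JAZF1-SUZ12 replicate 2 it was -0.0050.

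The genes of the middle of the cluster, HOXB5 to HOXB8, were less abundant. HOXB8 (ENSG00000120068), known for blocking myeloid differentiation when overexpressed, was at 18.8 and 19.7 CPM in mock and 15.6 and 18.2 CPM with the fusion (log2 fold change -0.20, edgeR, adjusted p = 0.185). HOXB7 (ENSG00000260027) had 241 and 240 counts in mock and 173 and 268 in the libraries with the fusion, which is lower in both on the CPM scale (log2 fold change -0.15, edgeR, adjusted p = 0.450). The CPM of both genes were lower in both JAZF1-SUZ12 libraries, and neither gene was called.

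HOXB6 (ENSG00000108511) was at 7.19 and 8.92 CPM in mock and 8.34 and 9.13 CPM with the fusion, and the groups overlapped (log2 fold change 0.10, edgeR, adjusted p = 0.713). Without mock replicate 1 the value turned to -0.058. HOXB5 (ENSG00000120075) had 49 counts in each mock library and 41 and 77 in the JAZF1-SUZ12 libraries (log2 fold change 0.22, edgeR, adjusted p = 0.631). With the fewest counts of these 8 genes, HOXB5 had the widest 95% interval, from -0.40 to 0.85. HOXB1 (ENSG00000120094), the most anterior gene, had 0 counts in all 4 libraries, which allows a level of up to 0.123 to 0.174 CPM at 3 counts per library.

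Read together, the edgeR 95% intervals of the 8 genes from HOXB2 to HOXB9 lay between -0.44 and 0.85 on the log2 scale. Each of these edgeR intervals excluded a 2-fold change in either direction. These intervals are for single genes and are not adjusted for their number. Groups did not overlap for 6 of the 9 tested members, 5 lower and 1 higher, where 61.0% of all tested genes did not overlap, 27.2% lower and 33.8% higher. Shares of all genes called differed between alternatives. They were 25.0% with DESeq2's size factors, 23.2% with total counts, 16.3% with DESeq2, 17.8% without a filter, 26.3% at a mean of at least 50 counts, 27.5% with a replicate block and 25.3% with limma-voom. Without JAZF1-SUZ12 replicate 1 or 2 they were 24.6% and 17.0%, and without mock replicate 1 or 2 they were 17.4% and 20.2%. HOXB13 was called in each of these alternatives that tested it, entering each only through the JAZF1-SUZ12 libraries. In the authors' deposited table none of these 8 genes was called, and their adjusted p-values ranged from 0.268 for HOXB9 to 0.991 for HOXB3.

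**Figure D1:**
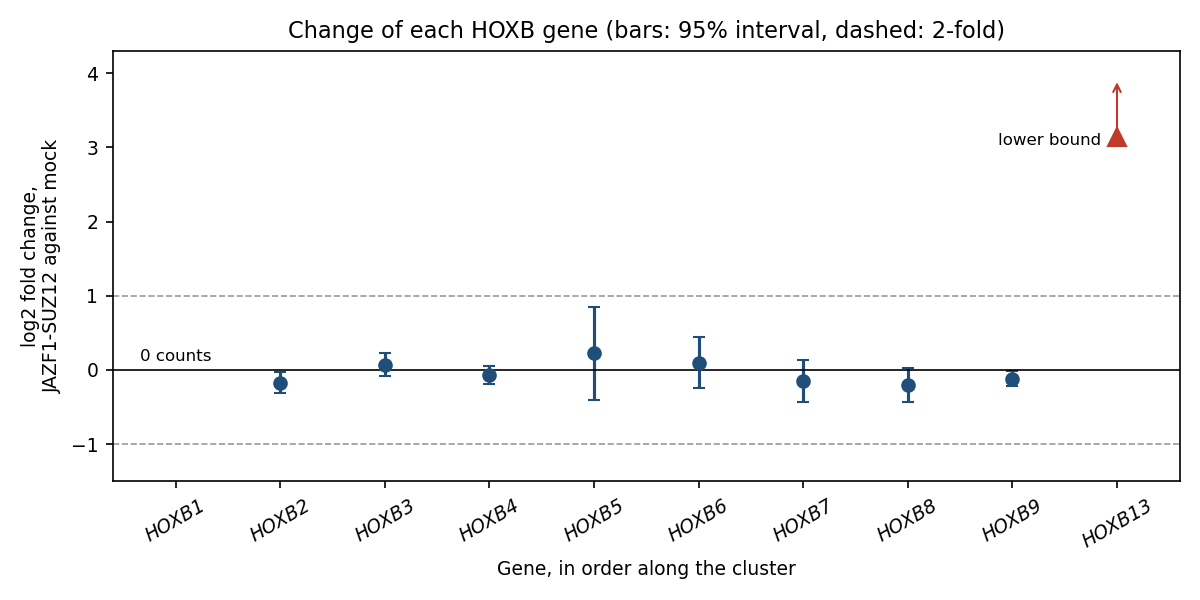
The log2 fold change of each HOXB gene, JAZF1-SUZ12 against mock, with its 95% interval as a bar (edgeR, 2 libraries per group); the triangle is the lower bound for HOXB13 against 3 counts per mock library, and dashed lines mark a 2-fold change. The 8 genes from HOXB2 to HOXB9 lie between -0.44 and 0.85 including their bars, and the bound for HOXB13 lies at 3.13.

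Levels of different genes were compared per kilobase of the longest annotated transcript. In mock libraries the order was HOXB9 (100.4 ± 2.24 CPM per kilobase, SD, n = 2), HOXB2 (38.1 ± 2.34), HOXB4 (20.7 ± 0.0234), HOXB8 (10.6 ± 0.345), HOXB3 (9.40 ± 0.147), HOXB7 (8.41 ± 0.267), HOXB6 (4.11 ± 0.625) and HOXB5 (1.15 ± 0.0332), followed by HOXB1 and HOXB13 at 0. Each of the first 8 was above the next in both mock libraries. In JAZF1-SUZ12 libraries HOXB3 (9.43 and 10.6) and HOXB8 (8.55 and 9.99) overlapped, and the rest of the order was as in mock with HOXB13 (0.364 ± 0.147) between HOXB5 and HOXB1. HOXB13 in JAZF1-SUZ12 libraries was thus 3.72-fold below HOXB5 and 258-fold below HOXB9.

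Level did not follow position along the cluster. The most abundant genes, HOXB9 and HOXB2, lie on opposite sides of the expressed block, with HOXB5, the least abundant of the 8, between them. Among 13604 tested protein-coding genes HOXB9 stood at percentile 95.7 in mock and 95.6 in JAZF1-SUZ12 libraries, and HOXB5 at 22.6 and 21.3. HOXB13 reached percentile 8.86 in JAZF1-SUZ12 libraries. The order in the middle depends on the length used. With the median transcript length instead, HOXB2 was followed in mock by HOXB3 (27.9), HOXB8 (25.9), HOXB7 (21.8) and HOXB4 (20.7 CPM per kilobase). HOXB9 was then 1.57-fold above HOXB2 in mock, against 2.63-fold with the longest transcript.

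**Figure D2:**
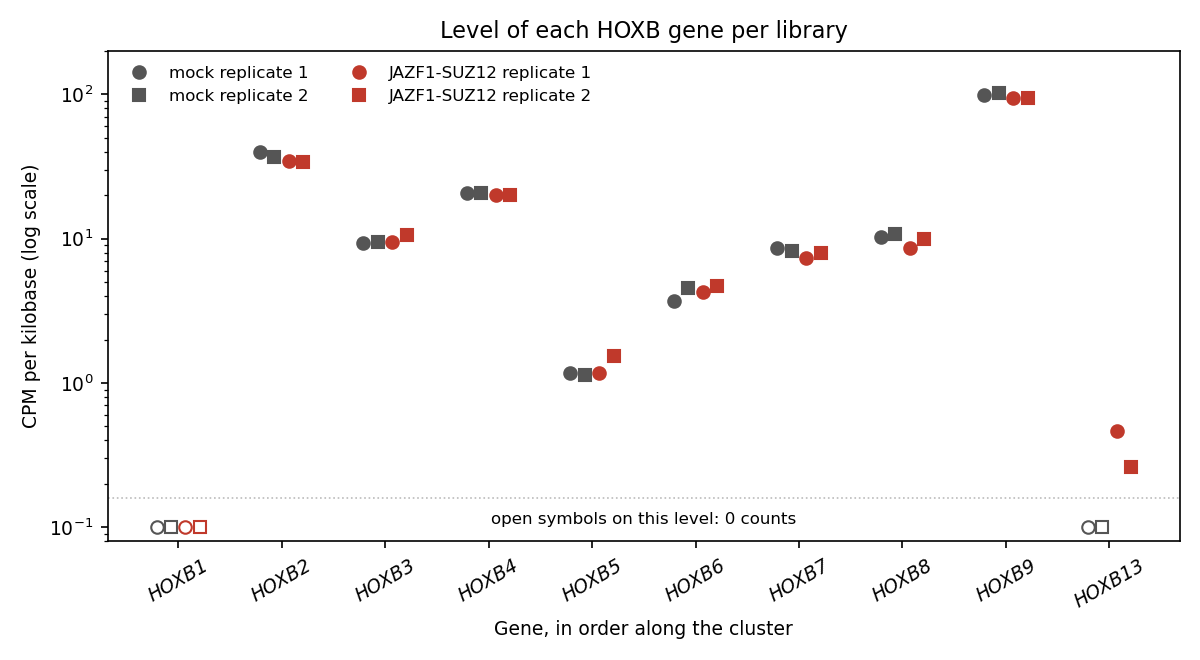
The level of each HOXB gene in CPM per kilobase of its longest transcript, on a log axis, with 1 point per library (grey mock, red JAZF1-SUZ12; circle replicate 1, square replicate 2); open symbols at the bottom stand for 0 counts. The 4 libraries sit close together from HOXB2 to HOXB9, and HOXB13 has points above 0 only in the JAZF1-SUZ12 libraries.

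The weight of HOXB13 within the cluster was compared as a share, which does not depend on how libraries are scaled. The 10 genes together had 9697 and 10229 counts in mock and 7771 and 11182 in JAZF1-SUZ12 libraries. HOXB13 made up 0.360% (95% exact binomial interval 0.240% to 0.520%) and 0.197% (0.123% to 0.298%) of these in JAZF1-SUZ12 replicates 1 and 2. In the mock libraries its 0 counts allow a share of up to 0.0309% and 0.0293% at 3 counts. An exact permutation test over the 4 libraries gave p = 0.333 (two-sided), the smallest p that 2 against 2 can give. The share was higher in 2 of 2 JAZF1-SUZ12 libraries.

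The summed HOXB level and its makeup moved little. The sum was 477 ± 4.24 CPM in mock and 454 ± 5.40 CPM with the fusion (SD, n = 2 each; exact permutation p = 0.333, the smallest possible), lower in both JAZF1-SUZ12 libraries. HOXB9 held 54.3 ± 0.726% of HOXB counts in mock and 53.5 ± 0.875% in JAZF1-SUZ12 libraries (exact permutation p = 0.667), and the groups overlapped. As a share of the counts of all 39 HOX genes, HOXB went from 94.8 ± 0.208% to 90.8 ± 0.0793% (exact permutation p = 0.333, the smallest possible). Adjusted over the 4 cluster measures compared in this way, p was 0.444 for the 3 measures at the smallest p and 0.667 for the HOXB9 share. In bulk libraries a few cells with much RNA of a gene and many cells with little cannot be told apart.

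Outside HOXB, the 29 genes of the other clusters summed to 25.4 and 27.3 CPM in mock and to 45.8 and 46.0 CPM with the fusion. Of these 29 genes, 13 had enough counts to be tested, 7 were called higher and 0 lower (edgeR), and the remaining 16 were too low to test. For comparison, edgeR called 13.3% of all tested genes higher and 11.4% lower. HOXD4, HOXD8, HOXD9 and HOXD13, like HOXB13, passed the filter (0.479 CPM in at least 2 libraries) only through the JAZF1-SUZ12 libraries. That these 4 of the 7 were higher was thus fixed by the filter, and their calls are given as a description. Within paralogue group 13, HOXC13 had 22 and 24 counts in mock and 59 and 115 in JAZF1-SUZ12 libraries (log2 fold change 1.86, edgeR, adjusted p = 0.000453), and HOXD13 had 0 and 3 against 19 and 50 (edgeR, adjusted p = 0.000827). Pooled over libraries, the HOXD13 ratio was 23.0-fold with a 95% exact counting interval from 7.56 to 114. All 3 mock counts of HOXD13 were in mock replicate 2: the fitted log2 value of 4.35 became 3.42 when mock replicate 1 was left out, and 8.04 when mock replicate 2 was, where the remaining mock library is at 0 and the value is no bound. HOXA13 had 1 count in all libraries together.

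In paralogue group 9 the abundant genes moved little. HOXC9 was at 7.39 and 10.5 CPM in mock and 11.3 and 9.74 CPM with the fusion, which overlap (log2 fold change 0.20, edgeR, adjusted p = 0.436). HOXD9 had 0 counts in both mock libraries and 16 and 26 in JAZF1-SUZ12 libraries, at least 6.92-fold higher by the same bound as for HOXB13. HOXA9, a gene of many myeloid leukaemias, had at most 3 counts in any library. HOXC12, HOXD4 and HOXD8 were also among the genes called higher. HOXC12 had 20 and 44 counts in mock and 132 and 118 with the fusion (log2 fold change 1.99, edgeR, adjusted p = 0.000366; 2.62 without mock replicate 2). HOXD4 had 1 and 4 counts in mock and 25 and 18 with the fusion (edgeR, adjusted p = 0.00738), and its call was lost without JAZF1-SUZ12 replicate 1 or mock replicate 1 (adjusted p = 0.102 and 0.0695). The fitted log2 fold change of HOXD4, 3.08, was 2.53 and 2.45 without these and 4.27 without mock replicate 2. HOXD8 had 6 and 7 against 15 and 33 (edgeR, adjusted p = 0.0296); its call was lost with DESeq2 (adjusted p = 0.121) and without any 1 of the 4 libraries (edgeR, adjusted p = 0.0525 to 0.366). The 8 HOX genes called higher, HOXB13 included, had a mean of at most 78.5 counts over the 4 libraries. This is below the mean of 7 of the 8 genes from HOXB2 to HOXB9. HOXC5, HOXC4, HOXA3 and HOXC8 were tested and not called, with means of 15.25, 38.5, 57.0 and 57.25 counts. Whether the calls depended on the level of a gene was not tested.

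**Figure D3:**
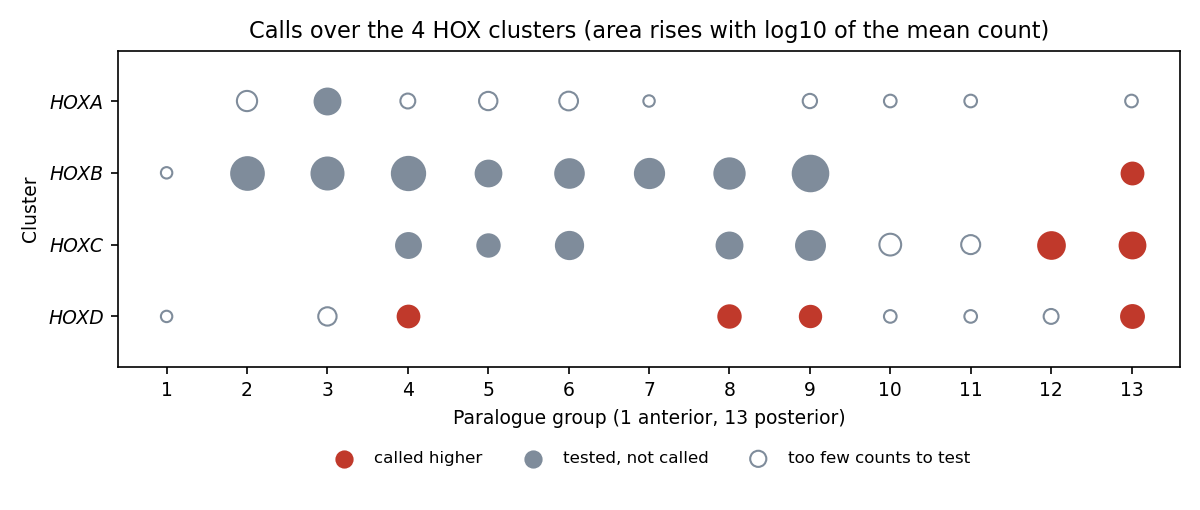
38 HOX genes by cluster (rows) and paralogue group (columns): red circles were called higher in JAZF1-SUZ12 libraries (edgeR, adjusted p under 0.05), grey circles were tested and not called, open circles had too few counts, and the area rises with the log10 of the mean count. The genes called higher include HOXB13, HOXC13 and HOXD13, and the large circles of HOXB2 to HOXB9 are grey.

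The genes around HOXB13 were examined next. The cluster spans 200.7 kb from HOXB1 to HOXB13, of which HOXB1 to HOXB9 take 97.8 kb. PRAC2 and PRAC1, small genes known from prostate and distal colon, lie just beside HOXB13 on its 3′ side and had 0 counts in all 4 libraries. TTLL6, a tubulin-modifying enzyme and the next coding gene on the other side, had at most 1 count in a library. So HOXB13 was the only coding gene between HOXB9 and CALCOCO2 with more than 1 count in any library. The antisense RNAs HOXB-AS1 to HOXB-AS4 and the microRNA genes MIR10A and MIR196A1 of the cluster were not analysed here.

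Within 500 kb on each side, 11 genes other than members were tested, 1 was called higher and 1 lower (edgeR). The share called over all tested genes was 24.7%. CALCOCO2, an autophagy receptor, was at 64.4 and 61.9 CPM in mock and 73.9 and 73.0 CPM with the fusion (log2 fold change 0.20, edgeR, adjusted p = 0.0244). This call was lost with DESeq2 (adjusted p = 0.104) and without any of 3 of the 4 libraries, JAZF1-SUZ12 replicate 1, mock replicate 1 and mock replicate 2 (edgeR, adjusted p = 0.0901, 0.0581 and 0.174). IGF2BP1, an oncofetal RNA-binding protein named here after its values were seen, was lower (log2 fold change -0.28, edgeR, adjusted p = 0.000273). CBX1 and SNX11, on the HOXB1 side, had log2 fold changes of -0.03 and -0.08, neither called (edgeR, adjusted p = 0.766 and 0.593).

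**Figure D4:**
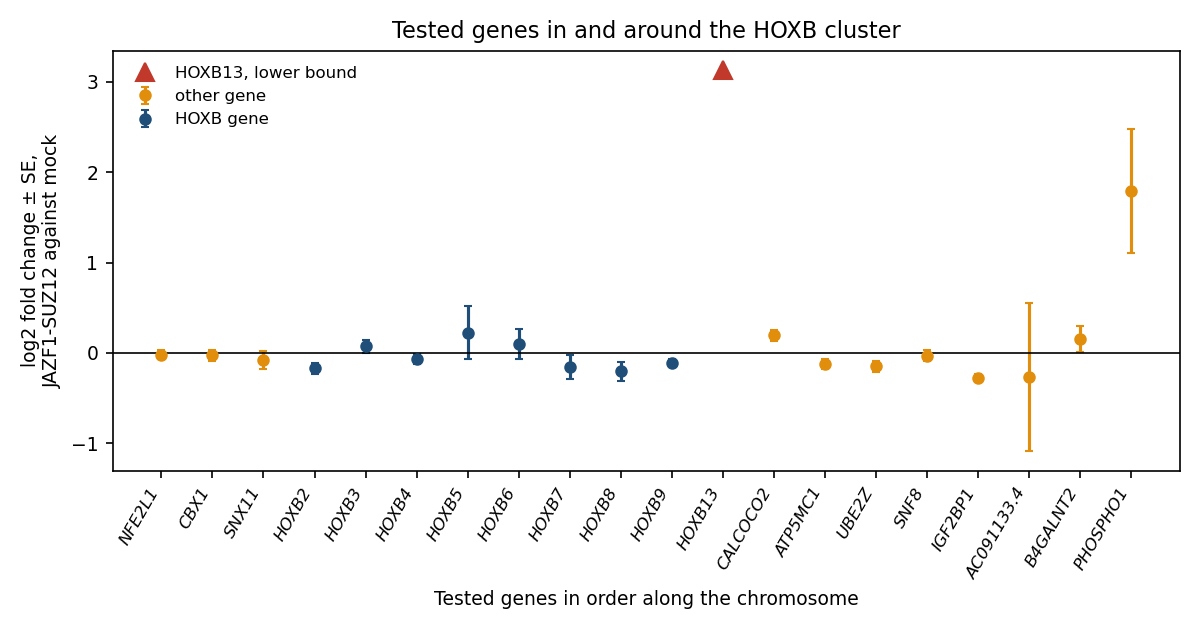
The log2 fold change with its standard error (edgeR, 2 libraries per group) for each tested gene within 500 kb of the HOXB cluster, in chromosomal order (blue HOXB genes, orange other genes); the triangle is the lower bound for HOXB13. The bound for HOXB13 lies at 3.13. PHOSPHO1 lies at 1.79 with a wide error and was not called (edgeR, adjusted p = 0.0667). AC091133.4 also has a wide error, and the other genes lie between -0.28 and 0.22.

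HOX proteins bind DNA together with homeodomain proteins of the TALE class, which raise their affinity and selectivity: PBX proteins pair with most HOX proteins and MEIS proteins with PBX and with posterior HOX proteins. All 11 TALE genes of the list were tested. Of these, 3 were called higher, 1 lower and 7 were not called (edgeR), beside 13.3% higher and 11.4% lower over all tested genes. Their median log2 fold change was 0.06 against 0.0032 over all tested genes. MEIS3 was at 3.33 and 3.38 CPM in mock and 12.9 and 14.6 CPM with the fusion, (log2 fold change 2.01, standard error 0.17, edgeR, adjusted p = 3.09e-07). PBX3 was at 1.91 and 2.16 CPM in mock and 5.91 and 5.40 CPM with the fusion (log2 fold change 1.45, edgeR, adjusted p = 0.000415). MEIS3 and PBX3 did not overlap between groups.

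MEIS1, the cofactor best known with HOXA9 in leukaemia, was at 22.6 and 26.1 CPM in mock and 23.9 and 27.3 CPM with the fusion and was not called (log2 fold change 0.06, edgeR, adjusted p = 0.721). PBX2, the most abundant TALE gene, was not called either (log2 fold change -0.08, edgeR, adjusted p = 0.206). MEIS2 was lower, with 963 and 1064 counts in mock and 743 and 1031 in the libraries with the fusion (log2 fold change -0.21, edgeR, adjusted p = 0.0332). The MEIS2 call was lost with DESeq2 (adjusted p = 0.158), with total counts only (edgeR, adjusted p = 0.0565) and without JAZF1-SUZ12 replicate 2 or mock replicate 2 (edgeR, adjusted p = 0.175 and 0.156).

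**Figure D5:**
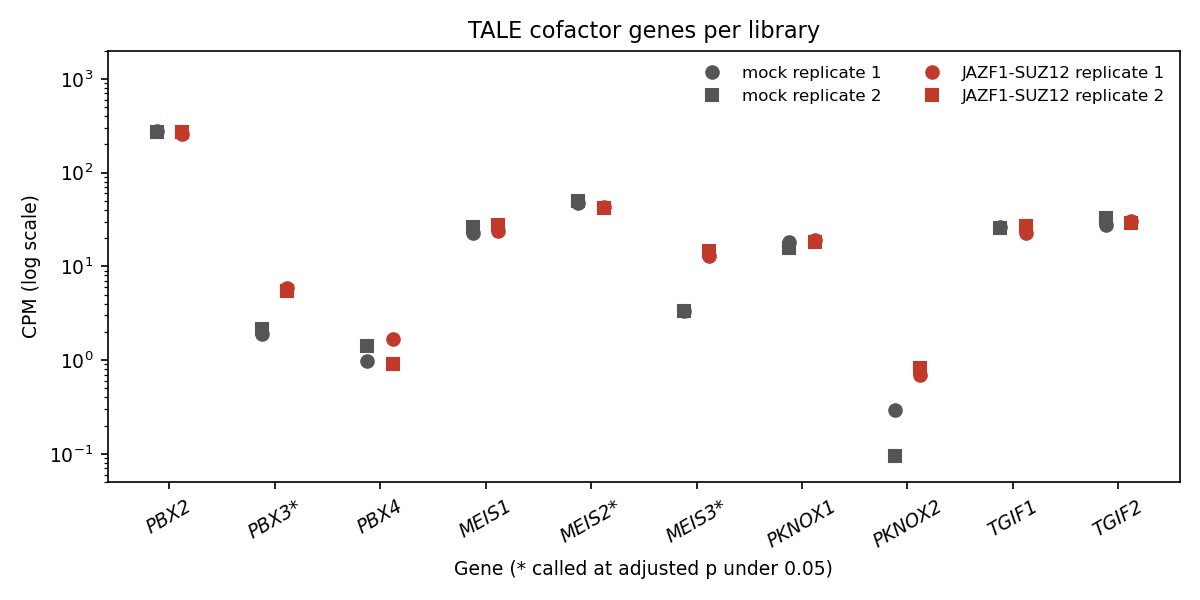
The level of 10 TALE cofactor genes in CPM on a log axis, with 1 point per library (grey mock, red JAZF1-SUZ12; circle replicate 1, square replicate 2); asterisks mark genes called by edgeR at an adjusted p under 0.05. MEIS3 and PBX3 are higher in both JAZF1-SUZ12 libraries, and MEIS2 is slightly lower.

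Genes that maintain or open HOX loci formed another list of 19, of which 16 were tested. Of these, 2 were called higher, 3 lower and 11 were not called (edgeR), beside 13.3% higher and 11.4% lower over all tested genes. Their median log2 fold change was -0.06. Both genes called higher encode enzymes that break down retinoic acid, the signal that opens 3′ HOX genes in embryos. CYP26A1 was at 12.7 and 12.9 CPM in mock and 21.6 and 22.3 CPM with the fusion (log2 fold change 0.76, edgeR, adjusted p = 7.70e-05). CYP26B1 had 3 and 11 counts in mock and 30 and 31 in JAZF1-SUZ12 libraries (log2 fold change 2.12, edgeR, adjusted p = 0.0142), and its call was lost without JAZF1-SUZ12 replicate 1 or mock replicate 1 (adjusted p = 0.0857 and 0.129). The fitted log2 value was 1.49 when mock replicate 1 was left out and 3.26 when mock replicate 2 was. Only 1 mock library reached the level of the count filter, so CYP26B1 was tested only through the JAZF1-SUZ12 libraries.

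The 3 genes called lower belong to the trithorax-type complexes that methylate lysine 4 of histone H3, and each change was small. ASH2L, WDR5 and MEN1 had log2 fold changes of -0.16, -0.16 and -0.18 (edgeR, adjusted p = 0.0160, 0.0407 and 0.0455). With DESeq2, WDR5 and MEN1 were not called (adjusted p = 0.126 and 0.152). WDR5 was not called without any 1 of the 4 libraries (edgeR, adjusted p = 0.0765 to 0.142), MEN1 was called only without JAZF1-SUZ12 replicate 1 among these (adjusted p = 0.0126), and ASH2L was not called without mock replicate 2 (adjusted p = 0.0601). KMT2A, the methyltransferase that keeps HOX genes active in blood cells, was not called (log2 fold change 0.0056, edgeR, adjusted p = 0.954). The CDX genes, which open the middle of HOX clusters in embryos, had 0 counts in every library for CDX1 and CDX4, and CDX2 had 7 counts in 1 JAZF1-SUZ12 library and 0 in the others.

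Of 5 genes for proteins that bind HOXB9 or HOXB13, 4 were tested and 2 were called, both higher (edgeR). Over all tested genes, 13.3% were called higher. BTG2, an antiproliferative protein that binds HOXB9, was at 122 and 125 CPM in mock and 163 and 161 CPM with the fusion (log2 fold change 0.37, edgeR, adjusted p = 7.03e-05). BTG1, its close relative, was at 37.9 CPM in both mock libraries and 52.0 and 55.2 CPM with the fusion (log2 fold change 0.48, edgeR, adjusted p = 7.79e-05). GMNN and FOXA1 were not called (log2 fold change -0.15 and -0.38, edgeR, adjusted p = 0.0998 and 0.289).

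Finally, the genes most like HOXB13 and HOXB9 over the 4 libraries were listed by the Euclidean distance of their log2 CPM, leaving out members. Nearest HOXB13 were CGB2, PLAAT1 and TP53TG3E, at distances of 0.101, 0.114 and 0.594, all with 0 counts in both mock libraries. In JAZF1-SUZ12 replicates 1 and 2, the counts were 26 and 22 for CGB2, 28 and 24 for PLAAT1, and 25 and 14 for TP53TG3E. CGB2 and TP53TG3E belong to families of near-identical copies, so their counts are uncertain. Nearest HOXB9 were ATP5MF, MARS1 and MYC, at distances of 0.0541, 0.0545 and 0.0594. The measure rests on 4 libraries in 2 groups and is given as a description.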

How the data were processed

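RNA-seq libraries were made by poly(A) selection with a directional kit, per the labels' protocols. The authors deposited estimated counts per gene, not normalized; kallisto 0.46.2, DESeq2 1.30.1 and the build hg38 are listed per the submitters' processing notes, and the annotation is not given in the sources used here. The authors' deposited comparison gives a mean signal of scaled counts, a log2 fold change with its standard error, a score (the test statistic), and p-values, per the file headers.

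Columns were assigned by title. The planned test assumed whole counts, so the estimated counts were rounded, then filtered with filterByExpr (14750 of 35606 genes left), scaled with TMM and tested with edgeR 4.0.16 (quasi-likelihood, group as the only term, two-sided, Benjamini-Hochberg over all genes tested, threshold 0.05) in R 4.3.3. The standard error is the log2 fold change over the square root of F. CPM used each library's total. Positions and transcript lengths came from GENCODE 29 on GRCh38, in which 35410 IDs matched. On simulated counts for this comparison, edgeR recovered 171 of 200 genes changed 2-fold among 14701 tested, with 3 false calls, and DESeq2 1.42.0 recovered 149 with 2.

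The members and gene lists were chosen with earlier results of these data known. Named genes were all members and, in each list, those called, otherwise up to 3 of the highest count. MEIS1, KMT2A, IGF2BP1, EPCAM and the marker and regulator genes given at 0 were named after their values were seen. Alternatives were DESeq2, its size factors, total counts, other filters, limma-voom (limma 3.58.1), a replicate block, other lengths and leaving out each library; fold changes without each library were planned, and limma-voom and the tests on 3 libraries, with their adjusted p-values and counts of calls, were added after seeing the data. The lists of granulocyte-monocyte and lymphoid markers summed to at most 34.9 and 6.22 CPM in a library. Some genes of these lists and some sequences are not reported here.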

Additional observations from a re-analysis of the deposited data

How the results depend on the processing

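HOXB13 was called in all 10 alternatives that tested it. With 0 counts in mock, it entered each of them only through the JAZF1-SUZ12 libraries. Its direction was thus fixed, and these calls are given as a description. A minimum mean of 50 counts removed HOXB13 and left 0 of 8 members called. The 1 member called became 3 without a filter on low counts, when HOXB2 and HOXB9 passed as well. Without single libraries it was 1 to 2. The 3643 genes called over the transcriptome became 2407 with DESeq2, for a cause that was not tested, and 2568 to 3782 without single libraries, where the lone library was taken to vary like the other group. With the replicate number as a block there were 2 members called, HOXB13 and HOXB2 (adjusted p = 0.0404), and 4061 genes in all. Same-numbered libraries did not deviate together (r = -0.00072 over 14750 genes), so the block is given only as a check. The direction of HOXB3 turned without JAZF1-SUZ12 replicate 2 (log2 fold change -0.0050) and that of HOXB6 without mock replicate 1 (-0.058). Without single libraries these ranged from -0.0050 to 0.13 and from -0.058 to 0.25, and neither gene was called in any alternative. The rise of HOXB13's share, 0.279 percentage points, ranged from 0.197 to 0.360 without single libraries and was 0.601 with HOXB9 left out of the total. The lead of HOXB9 over HOXB2 in mock was 2.63-fold and became 1.57-fold with the median transcript length, by construction. The number of libraries per group limits the precision of every SD.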
